A study of Mus musculus with 52 samples.

Results

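The 6 genes described here encode the intraflagellar transport A (IFT-A) complex: Ift140, Wdr19, Ttc21b, Ift122, Wdr35 and Ift43. They are the named subunits of the complex, and make up 6 of the 24421 gene symbols counted in every library. All 6 were detected in every library and passed the expression filter of each comparison.

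Intraflagellar transport carries cargo along the microtubules of the primary cilium, the antenna-like organelle of most resting epithelial cells. Trains of the IFT-B complex are driven to the tip by kinesin-2 and are returned to the base by the dynein-2 motor together with IFT-A. The IFT-A complex also brings membrane proteins into the cilium through the adaptor TULP3. Ift140, Wdr19 (IFT144) and Ift122 encode its core, and Ttc21b (IFT139), Wdr35 (IFT121) and Ift43 encode its peripheral subunits. Pathogenic alleles of IFT-A genes in humans cause short-rib thoracic dysplasia and cystic kidney disease, as do alleles of the dynein-2 intermediate chain genes Wdr34 and Wdr60 for the skeleton.

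The cells were Cilia-APEX-IMCD3 cells, a mouse inner medullary collecting duct line. RNA of 13 clones, counted by label and state, was sequenced, each in 4 technical replicate libraries (52 in all). The study's methods count 4 control and 3 mutant clones, so the non-ciliated mutant clones are probably also in the ciliated set. The labels link no mutant clone of one state to one of the other, and the tests between states treat all 13 as independent. The ciliated cells comprised 3 homozygous mutant clones, Wdr34 clone 1, Wdr34 clone 3 and Wdr60, and 4 controls (D8, A4, G7 and H12). The non-ciliated cells comprised 2 homozygous mutant clones, Wdr34 and Wdr60, and 4 control clones, AB, 1, 2 and 3. The mutants were made by cytosine base editing of disease alleles, which the study's methods give as Wdr34 p.Arg183Trp, Wdr34 p.Gly394Ser and Wdr60 p.Ala911Val. The sample labels name no allele, and p.Gly394Ser was absent from the non-ciliated set. According to the study's methods, controls received the base editor with a guide vector that held no guide, and the labels give base editing as the treatment of every library, but no source says for each control clone, AB included, what it received. Each clone grew from a single cell, so that genotype and clone cannot be told apart within a comparison of 1 clone, and an additional heterozygous missense change in Wdr34 went with p.Gly394Ser. By the study's methods, cells were starved of serum to form cilia, whereas the labels give the same growth medium for all libraries. The p.Gly394Ser clone came later than the sequencing of the non-ciliated set, and no source gives the sequencing time of the other ciliated clones. State and serum therefore cannot be told apart, nor can sequencing time where it differed. No label pairs a control clone of one state with a control clone of the other.

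Library totals ranged from 14816218 to 28084979 counts. Of the 13 genes listed as collecting duct and kidney epithelial markers, Aqp2, the vasopressin-regulated water channel of the collecting duct, had fewer than 10 counts in every library, and the 13 genes summed to 1167 to 4696 CPM per clone. CPM are counts per library total, which is unscaled for the cell type markers of this paragraph and for the summed cycling genes. The total is scaled by TMM (trimmed mean of M-values) for all other values, those of Cdh16 and of single cell cycle genes included. All 4 endothelial markers stayed under 10 counts in every library. The 6 fibroblast markers summed to 32.5 CPM in ciliated Wdr34 clone 3 and to at most 5.56 CPM in the other clones. Dcn, which encodes the matrix proteoglycan decorin, made up 30.4 CPM of that sum and did not exceed 1.03 CPM in any other clone. The collagen gene Col1a1 was at 1.22 CPM in that clone and at 0.351 to 2.45 CPM in the ciliated controls, Pdgfra was at 0.820 CPM there and at 1.16 CPM in non-ciliated control AB, and Col1a2, Lum and Thy1 stayed under 10 counts in every library. In bulk RNA, fewer cells expressing a gene and less RNA of it per cell cannot be told apart. The 2 edited genes carry missense changes, so their RNA level is no check of the edit. Wdr34 was at 21.7 CPM in ciliated Wdr34 clone 3, 46.2 CPM in ciliated Wdr34 clone 1 and 30.9 to 44.01 CPM in the 4 ciliated control clones.

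The 5 members other than Ift43 have long transcripts. On GRCm38, Ift140 lies on chromosome 17 at 25016083 to 25099499 (plus strand) with 8333 bp of exon sequence, Wdr19 on chromosome 5 at 65199696 to 65260415 (plus strand) with 11278 bp, and Ift122 on chromosome 6 at 115853379 to 115926699 (plus strand) with 10319 bp. Of the peripheral subunits, Ttc21b lies on chromosome 2 at 66183787 to 66256674 (minus strand) with 9282 bp, Wdr35 on chromosome 12 at 8973998 to 9028848 (plus strand) with 7273 bp, and Ift43 on chromosome 12 at 86082561 to 86162459 (plus strand) with 1651 bp. Tmem204 lies within Ift140 on the opposite strand and the antisense gene Gm13618 overlaps Ttc21b, but 0 bp of exon sequence were shared in either pair. Tmem204 itself was at 1.14 ± 0.125 CPM in ciliated and 1.41 ± 0.290 CPM in non-ciliated controls (SD, n = 4 clones).

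Ttc21b and Ift140 were the members that differed between the states, and their promoter windows are shown for that reason. The windows are from RefSeq on GRCm38.p6, each of 300 bases, 250 before and 50 after the annotated start, read 5′ to 3′ on the strand of the gene. They cover chr2:66256568-66256867 (minus strand) for Ttc21b and chr17:25015836-25016135 (plus strand) for Ift140. Capitals mark CCAAT or its reverse complement ATTGG, the letters bound by the factor NF-Y, and GTTGCC or its reverse complement GGCAAC, letters found in the X-box that RFX factors bind in promoters of ciliary genes.
Ttc21b: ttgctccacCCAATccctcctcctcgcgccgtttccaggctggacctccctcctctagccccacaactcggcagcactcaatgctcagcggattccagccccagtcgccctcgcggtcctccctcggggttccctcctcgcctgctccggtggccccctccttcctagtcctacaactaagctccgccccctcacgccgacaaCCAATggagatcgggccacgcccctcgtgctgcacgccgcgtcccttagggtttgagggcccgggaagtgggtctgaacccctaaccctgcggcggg
Ift140: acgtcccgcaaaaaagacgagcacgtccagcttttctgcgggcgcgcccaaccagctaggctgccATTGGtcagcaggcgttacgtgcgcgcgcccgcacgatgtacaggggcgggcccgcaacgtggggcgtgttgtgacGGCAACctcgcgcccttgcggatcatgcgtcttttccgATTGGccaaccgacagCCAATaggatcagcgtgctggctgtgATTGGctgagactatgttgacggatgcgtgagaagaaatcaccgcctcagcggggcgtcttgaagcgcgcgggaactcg

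The Ttc21b window held CCAAT letters 2 times and no GTTGCC letters. The Ift140 window held CCAAT letters 4 times and GTTGCC letters 1 time, 109 bases before the start on the minus strand. Windows were matched for 5 of the 6 members (all but Ift122). Both strands were searched, and the marked motifs do not overlap. CCAAT letters were in 4 of these 5 windows (Ift140, Wdr19, Ttc21b and Wdr35), against 37.4% of 32851 promoter windows of the same length. GTTGCC letters were in 2 of them (Ift140 and Wdr35), against 12.5%. These matches are letters in a window and no measured binding.

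The question of the state comparison was how the complex is transcribed in ciliated against non-ciliated cells, first in the control clones. Ttc21b, a peripheral subunit, was lower in ciliated control clones and Ift140, a core subunit, was higher, while the other 4 members were not called. The level of Ttc21b was 12.7 CPM in ciliated control D8, 18.5 in H12, 12.7 in A4 and 14.5 in G7. It was 53.4 CPM in non-ciliated control AB, 40.4 in control 1, 32.0 in control 2 and 44.7 in control 3. Every ciliated control clone lay below every non-ciliated one, and so did every single library, with 10.3, 13.9 and 19.8 CPM as the lowest, median and highest of 16 ciliated control libraries and 29.9, 43.5 and 58.4 CPM in 16 non-ciliated control libraries.

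The means of Ttc21b were 14.6 ± 2.75 CPM in ciliated and 42.6 ± 8.88 CPM in non-ciliated controls (SD, n = 4 clones each). The log2 difference was -1.55 (SE 0.20), a level 0.341 times that of the non-ciliated clones, with an adjusted p of 0.00148 by edgeR's quasi-likelihood test on counts summed per clone and Benjamini-Hochberg adjustment over 13994 genes. The fit held all 13 clones, with a mean for each state and genotype, so mutant clones also entered the spread. In that comparison 9.46% of genes were called lower and 8.98% higher. An exact 2-sided permutation of the 8 clones gave p = 0.0286 for Ttc21b, the smallest that 70 splits allow, and 0.129 after adjustment over all genes. Clone means that lay below without overlap were found in 11.9% of 12947 genes, and above in 10.3%.

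Ift140 encodes a core subunit built of WD40 and tetratricopeptide repeats. Its level was 43.0 CPM in ciliated control D8, 51.1 in H12, 45.1 in A4 and 66.3 in G7, against 27.6 CPM in non-ciliated control AB, 28.2 in control 1, 42.4 in control 2 and 35.2 in control 3. The clone means did not overlap, but the closest pair, D8 and non-ciliated control 2, differed by less than the spread among libraries. Library by library the states did overlap, from 39.6 to 71.9 CPM (median 49.1) in 16 ciliated and from 23.3 to 43.2 CPM (median 31.6) in 16 non-ciliated control libraries.

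Ift140 averaged 51.4 ± 10.5 CPM in ciliated and 33.4 ± 6.96 CPM in non-ciliated controls (SD, n = 4 clones each), a log2 difference of 0.61 (SE 0.18, edgeR adjusted p = 0.0407) or 1.53-fold. The exact permutation p was 0.0286, and 0.129 after adjustment over all genes. This call lay near the threshold. Leaving out 1 clone lifted the edgeR adjusted p to 0.0997 without non-ciliated control AB, 0.121 without control 1, 0.0783 without control 3, 0.0836 without ciliated control H12, 0.0558 without A4, 0.101 without G7 and 0.0587 without ciliated Wdr34 clone 1, with log2 differences of 0.46 to 0.66. It was also lost, at 0.0508, without the 4 libraries in which 1 member stood apart from the rest of its clone. For Ttc21b each of the 25 alternative fits of this comparison kept the call, although some left out only a mutant clone. With libraries in place of clones as the samples, Ift140 and Ift122 were called higher (31.8% of genes) and Ttc21b lower (30% of genes).

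**Figure D1:**
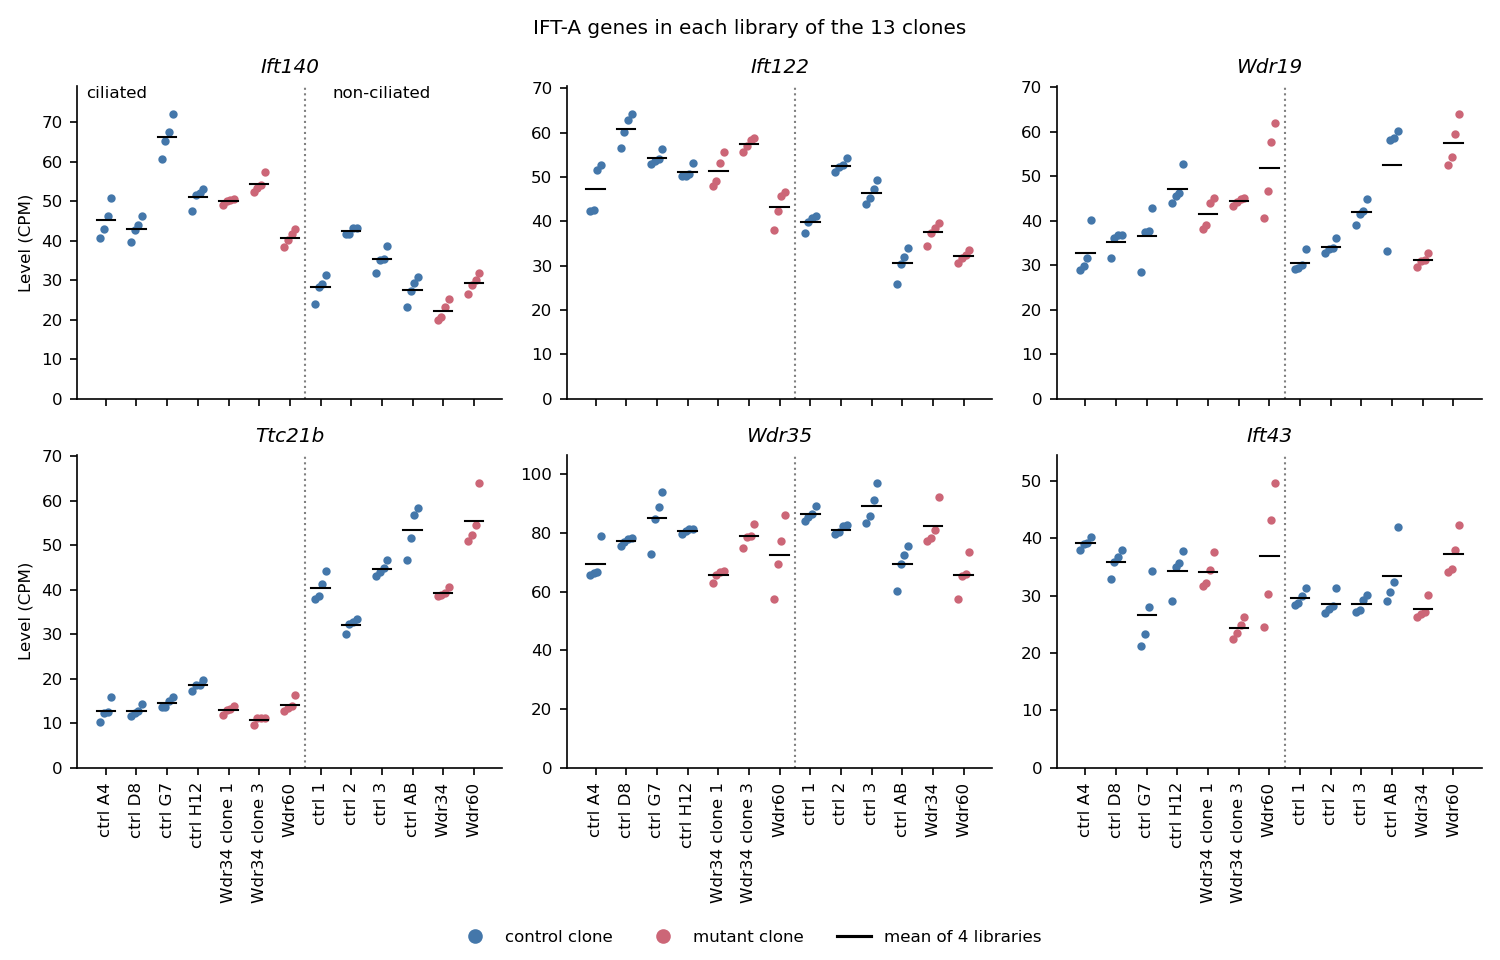
Level of each IFT-A gene (CPM, linear axis) in every library of the 13 clones. Points are libraries, coloured by genotype, the line is the mean of the 4 libraries of a clone, and the dotted line separates ciliated (left) from non-ciliated clones. All Ttc21b libraries of ciliated clones (9.47 to 19.8 CPM) lie below all those of non-ciliated clones (29.9 to 63.9 CPM).

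The other core subunits did not pass the test. Ift122 averaged 53.4 ± 5.74 CPM in ciliated and 42.4 ± 9.43 CPM in non-ciliated controls, a log2 difference of 0.33 (SE 0.17, edgeR adjusted p = 0.191), and its clone means overlapped because non-ciliated control 2 stood at 52.6 CPM. Wdr19 averaged 37.95 ± 6.34 against 39.8 ± 9.73 CPM, a log2 difference of -0.09 (SE 0.22, edgeR adjusted p = 0.808).

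Wdr35 and Ift43 are peripheral subunits that contact each other in the assembled complex. Wdr35 averaged 78.1 ± 6.63 CPM in ciliated and 81.6 ± 8.79 CPM in non-ciliated controls, a log2 difference of -0.08 (SE 0.12, edgeR adjusted p = 0.690). Ift43 averaged 34.0 ± 5.28 against 30.0 ± 2.34 CPM, a log2 difference of 0.19 (SE 0.16, edgeR adjusted p = 0.428). Over the 6 members the median log2 difference was 0.06, beside 0.02 over all genes tested.

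The mutant clones were compared between the states as well, a comparison added after the control values had been seen. Ttc21b was at 12.96 CPM in ciliated Wdr34 clone 1, 10.7 in Wdr34 clone 3 and 14.1 in Wdr60, and at 39.3 CPM in non-ciliated Wdr34 and 55.4 in Wdr60. Again no ciliated mutant library reached a non-ciliated one. The log2 difference was -1.92 (SE 0.24, edgeR adjusted p = 0.00341), in a comparison with 7.53% of genes called lower and 5.32% higher.

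Ift140 was at 49.9, 54.2 and 40.8 CPM in these 3 ciliated mutant clones and at 22.3 and 29.2 CPM in the non-ciliated Wdr34 and Wdr60 clones, a log2 difference of 0.90 (SE 0.24, edgeR adjusted p = 0.0352). Ift122 had a log2 difference of 0.53 (SE 0.22, edgeR adjusted p = 0.126). Clone means of Ift140 and Ift122 lay above without overlap, as in 26.6% of genes, and those of Ttc21b below, as in 27.3%. The exact permutation test cannot go below 0.1 with 3 against 2 clones. With control and mutant clones pooled, also a choice made after seeing the data, 7 ciliated clones were compared with 6 non-ciliated ones by exact permutation (1716 splits, adjusted over 12947 genes). These splits and the comparison of mutant clones treat the clones as independent, although mutant clones are probably shared between the states. Ttc21b was lower (p = 0.000583, the smallest these splits can give, adjusted p = 0.00502), as were 20.4% of genes, and Ift140 (exact p = 0.00117, adjusted p = 0.00728) and Ift122 (exact p = 0.0128, adjusted p = 0.0359) were higher, as were 19.2%. Over all 13 clones the means of Ift140 overlapped, from 40.8 to 66.3 CPM in ciliated and from 22.3 to 42.4 CPM in non-ciliated clones, as did those of Ift122. With libraries as the samples, Ift140 and Ift122 were called higher (31.4% of genes) and Ttc21b lower (29%).

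**Figure D2:**
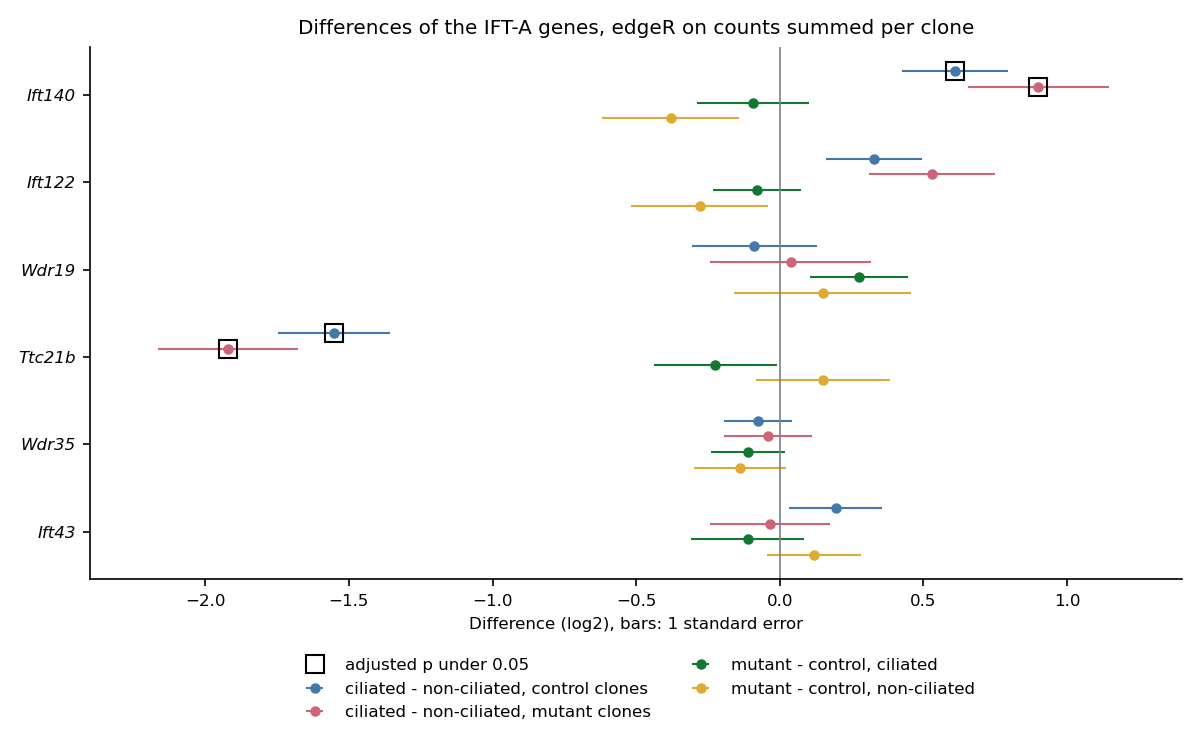
Log2 difference of each IFT-A gene in 4 comparisons, fitted by edgeR on counts summed per clone. Points are estimates, bars 1 standard error, and open squares mark an adjusted p under 0.05, which only Ttc21b and Ift140 reached, both between the states.

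Levels of different genes were compared per length of exon sequence, as RPKM (CPM per kilobase). In ciliated controls the order was Ift43 at 20.6 RPKM, Wdr35 at 10.7, Ift140 at 6.17, Ift122 at 5.17, Wdr19 at 3.37 and Ttc21b at 1.58. Of these neighbours Ift140 and Ift122 overlapped between clones, and the others did not. In non-ciliated controls Ift43 at 18.2 RPKM and Wdr35 at 11.2 again led, and they overlapped with no other member.

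Below them in the non-ciliated controls, Ttc21b at 4.59 RPKM, Ift122 at 4.11, Ift140 at 4.003 and Wdr19 at 3.53 overlapped with their neighbours and did not differ beyond the spread of the clones. Ttc21b thus stood at rank 6 of 6 in ciliated and at rank 3 in non-ciliated controls. This order depends on the length used. With the longest protein-coding transcript of each gene in place of all exon sequence, the non-ciliated controls had Ift122 at 10.3 RPKM, Ttc21b at 9.54, Wdr19 at 6.33 and Ift140 at 4.80 below Ift43 and Wdr35, which put Ttc21b at rank 4. In ciliated controls Ift122 at 12.9 RPKM then lay above Ift140 at 7.40 and Wdr19 at 6.04, and Ttc21b at 3.27 stayed at rank 6. Among 12471 genes its level per length was at the 21.1 percentile in ciliated and at the 38 percentile in non-ciliated controls. Ift43 was at the 76.5 and 73.6 percentile.

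As a share of the summed RPKM of the 6 members, Ttc21b made up 3.30% ± 0.564 in ciliated and 10.0% ± 1.93 in non-ciliated controls (SD, n = 4 clones each), with p = 0.0286 by an exact 2-sided permutation test. The share of Ift140 was 13% ± 2.98 against 8.77% ± 1.85 (exact permutation p = 0.0571). The sum itself was 47.6 ± 1.36 against 45.6 ± 1.27 RPKM (exact permutation p = 0.0857). The exact p of the other 4 shares ranged from 0.143 to 0.571, none adjusted for the 7 values compared. With the length of the longest protein-coding transcript, the share of Ttc21b was 3.62% against 10.9% (exact permutation p = 0.0286).

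**Figure D3:**
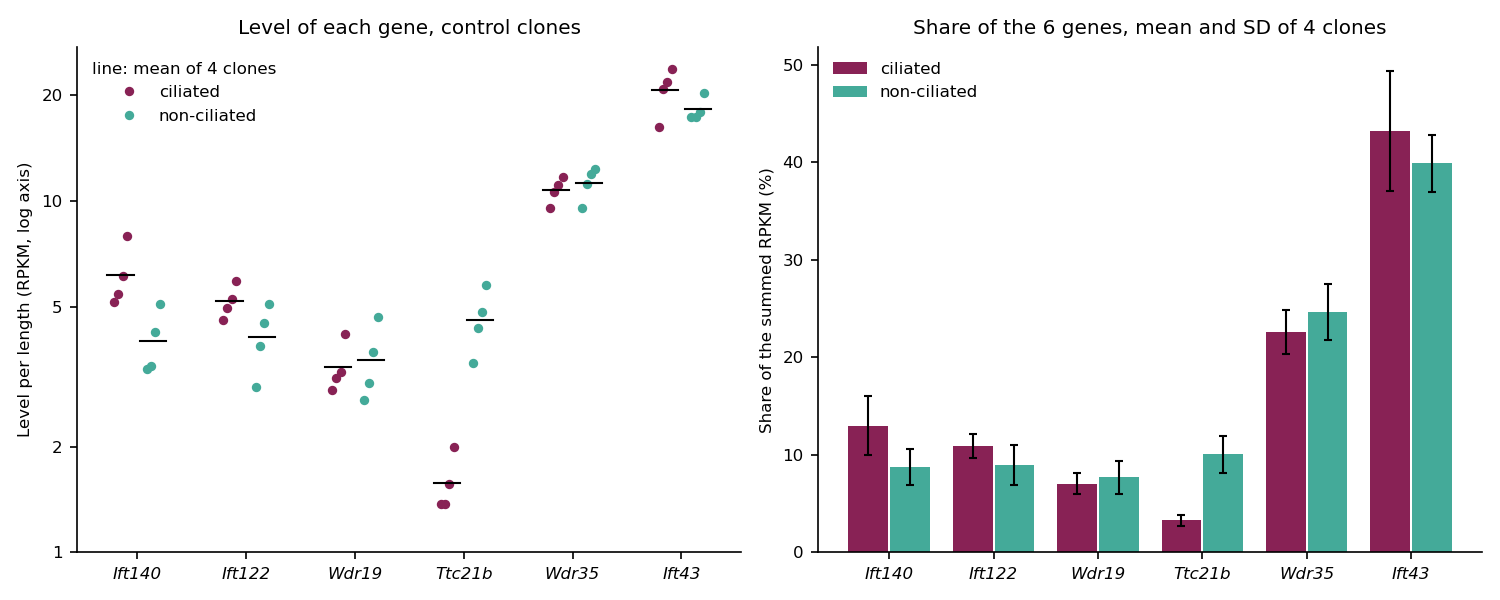
Left, level per length of each IFT-A gene in the control clones (RPKM, log axis), with 1 point per clone and a line at the mean of 4 clones. Right, share of each gene in the summed RPKM of the 6 genes (%), with bars for the mean and error bars for the SD of 4 clones. Ttc21b makes up 3.30% in ciliated and 10.0% in non-ciliated controls.

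Ttc21a, the paralog of Ttc21b, was rare. It averaged 0.978 ± 0.358 CPM in ciliated and 0.422 ± 0.136 CPM in non-ciliated controls (SD, n = 4 clones), so its level differed in the opposite direction to that of Ttc21b, and the pair was not tested against each other. The handling of reads that fit both genes is not given in the sources used here.

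The next question was whether the dynein-2 mutant clones differed from controls. In ciliated cells none of the 6 members was called, and 0% of 13243 genes were called by edgeR on counts summed per clone, with 148 genes and 0 members at an unadjusted p under 0.05. Log2 differences of the members ranged from -0.22 (SE 0.21) for Ttc21b to 0.27 (SE 0.17) for Wdr19, with edgeR adjusted p of 1 for each. Exact permutation p ranged from 0.143 to 0.743 over 35 splits of the 7 clones.

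Wdr19, a core subunit, was at 41.6, 44.4 and 51.8 CPM in ciliated Wdr34 clone 1, Wdr34 clone 3 and Wdr60. In the ciliated controls it was at 35.3 CPM in D8, 47.1 in H12, 32.7 in A4 and 36.7 in G7. The mutants averaged 45.9 ± 5.28 CPM (n = 3) and the controls 37.95 ± 6.34 CPM (n = 4), and H12 lay above 2 of the 3 mutant clones. Its share of the summed RPKM was 8.99% in mutants and 7.06% in controls (exact permutation p = 0.0857).

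In non-ciliated cells, too, none of the 6 members and 0% of 13406 genes were called on counts summed per clone, with 582 genes and 0 members at an unadjusted p under 0.05. Log2 differences ranged from -0.38 (SE 0.24, edgeR adjusted p = 0.976) for Ift140 to 0.15 (SE 0.31, edgeR adjusted p = 0.981) for Wdr19. Ift140 averaged 25.7 ± 4.93 CPM in 2 mutant clones and 33.4 ± 6.96 CPM in 4 control clones. With libraries as the samples Ift140 alone of the members was called lower (log2 difference -0.38, SE 0.12, edgeR adjusted p = 0.0360), in a fit that called 7.89% of genes lower. With the replicate number as a block this call was lost (-0.38, SE 0.13, edgeR adjusted p = 0.0608), although the numbers do not pair the libraries. The exact permutation of 2 against 4 clones cannot go below 0.0667 and gave 0.267 for Ift140.

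The test of the difference of the mutant effect between the states called 0 members and 0% of 13994 genes, with 136 genes and 0 members at an unadjusted p under 0.05. The estimate for Ttc21b was -0.37 (SE 0.31) and that for Ift140 was 0.29 (SE 0.30), with edgeR adjusted p of 1 for both. The same contrast compares the change with the state between mutants and controls, so the log2 differences of -1.92 and -1.55 for Ttc21b were not shown to differ.

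Single mutant clones were compared with the 4 controls of their state in 5 comparisons. On counts summed per clone, 0 of the 30 tests of members were called, and 0% of genes in each of the 5. In these fits the mutant arm is 1 clone, so the 4 controls alone give the spread and the lone clone is assumed to vary like them. With libraries as the samples, 8 of the 30 were called, and none of these was for ciliated Wdr34 clone 1. A test on libraries compares these clones, not genotypes.

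In the non-ciliated Wdr34 clone, libraries as samples gave Ift140 lower (-0.59, SE 0.15, edgeR adjusted p = 0.0123, with 6.78% of genes called lower). The clone stood at 22.3 CPM, the lowest Ift140 level of the 13 clones. In ciliated Wdr34 clone 3, Ttc21b (-0.47, SE 0.14, edgeR adjusted p = 0.0152) and Ift43 (-0.50, SE 0.15, edgeR adjusted p = 0.0161) were lower, in a fit that called 13.4% of genes lower. That clone had the lowest level of the 13 in both genes, 10.7 CPM for Ttc21b and 24.3 CPM for Ift43, although without library 4 ciliated control G7 stood at 24.1 CPM for Ift43. It is the clone in which Dcn was high while the other fibroblast markers did not exceed 1.22 CPM, both on unscaled totals. The part of Dcn-expressing cells in the result was not tested.

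In the non-ciliated Wdr60 clone, libraries as samples gave Wdr19 (0.52, SE 0.16, edgeR adjusted p = 0.0291) and Ift43 (0.30, SE 0.09, edgeR adjusted p = 0.0208) higher, with 7.98% of genes called higher, and Wdr35 lower (-0.32, SE 0.09, edgeR adjusted p = 0.0139), with 8.52% called lower. In the ciliated Wdr60 clone, Wdr19 was higher (0.44, SE 0.13, edgeR adjusted p = 0.0266, with 5.48% of genes called higher) and Ift122 lower (-0.32, SE 0.09, edgeR adjusted p = 0.0159, with 7.15% called lower). The level of Wdr19 was 51.8 CPM in the ciliated and 57.5 CPM in the non-ciliated Wdr60 clone, each the highest clone mean of its state, but without library 1 control AB stood at 58.97 CPM, above the non-ciliated Wdr60 clone.

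Non-ciliated control AB stood near the Wdr60 clone in the level of every member. AB and Wdr60 were at 52.5 and 57.5 CPM for Wdr19, at 53.4 and 55.4 CPM for Ttc21b, and at 30.6 and 32.1 CPM for Ift122. For Wdr35 they were at 69.4 and 65.6 CPM, for Ift43 at 33.5 and 37.2 CPM, and for Ift140 at 27.6 and 29.2 CPM. In Ift140 the clone of control 1 at 28.2 CPM lay between them. The same likeness was seen outside the members in Tulp3, at 68.9 CPM in AB and 70.4 CPM in Wdr60. Tulp3 was at 114.7 to 167.7 CPM in the other non-ciliated clones. The share of all genes for which AB and Wdr60 lie together was not computed. Without AB the log2 difference of Wdr19 between ciliated and non-ciliated controls turned from -0.09 to 0.08.

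Among ciliated clones each member varied less than the median gene, and among non-ciliated clones 4 of the 6 varied more. The SD of log2 CPM among 7 ciliated clones ranged from 0.131 for Wdr35 to 0.255 for Ift43, beside a median of 0.315 over 12947 genes. Among 6 non-ciliated clones it ranged from 0.165 for Ift43 to 0.383 for Wdr19, beside a median of 0.276. Ift140 (0.322), Ift122 (0.304), Ttc21b (0.294) and Wdr19 lay above that median. Libraries of 1 clone had an SD of 0.096 for Ift122 to 0.191 for Ift43.

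Pairs of members deviated together or apart over the 13 clones, each gene centred on the mean of its state. Wdr19 and Ttc21b had a Pearson r of 0.633, made up of 0.297 within the 7 ciliated and 0.853 within the 6 non-ciliated clones. Ttc21b and Ift122 had an r of -0.636, with -0.294 in ciliated and -0.844 in non-ciliated clones, so that both pooled values rest mainly on the non-ciliated clones. Wdr35 and Ift43 had an r of -0.687, with -0.611 and -0.905. These r are descriptions over few clones, which share a parental line, and all genes of a library are scaled by the same factor. The pairs named are among those with the largest r, and r of other gene pairs was not computed as a background. In the non-ciliated clones, control AB and Wdr60 also lay near each other in every member. The members had no common profile. The r of single members with the mean of their scaled profiles ranged from 0.038 (Ift43) to 0.616 (Ift140), although each is part of that mean. Of 12941 other genes, the most alike to this mean over the 13 clones were 6430550D23Rik (r = 0.891), Tnfrsf18 (0.875), Tspyl2 (0.856), Zdhhc24 (0.841) and Gpm6b (0.822), of which 6430550D23Rik, Tnfrsf18 and Gpm6b did not exceed 1.61 CPM in any clone.

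Libraries of a clone differed in how far long transcripts were represented, and most members moved with it. The log2 level of 3883 genes with over 6000 bp of exon sequence, minus that of 1796 genes with under 2000 bp, was -0.94 in library 1 of non-ciliated control AB against the other libraries of that clone, -0.53 in library 4 of ciliated control G7, and -0.50 and -0.38 in libraries 3 and 4 of ciliated Wdr60. In the other 48 libraries it ranged from -0.12 to 0.49. In each of these 3 clones the short Ift43 was higher in the libraries named than in all others of the clone, and Wdr19, Ttc21b and Wdr35 were lower. Ift140 and Ift122, also long, were lower in AB and G7 but overlapped in ciliated Wdr60, where Ift122 was at 46.7 and 42.2 CPM in libraries 3 and 4 and at 37.9 and 45.7 CPM in the others.

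In control AB, Ift43 was at 42.0 CPM in library 1 and at 29.1 to 32.3 CPM in the other 3, while Wdr19 was at 33.2 CPM in library 1 and at 58.2 to 60.1 CPM in the others. In ciliated Wdr60, Ift43 was at 49.6 and 43.2 CPM in libraries 3 and 4 and at 24.4 to 30.3 CPM in the others, and Wdr19 at 46.7 and 40.7 against 57.7 to 62.1 CPM. In G7, Ift43 was at 34.3 CPM in library 4 and at 21.2 to 28.0 CPM in the others. Ift43 was the member with the largest spread among libraries, together with Wdr19 (SD 0.184). Without these 4 libraries, an alternative chosen after seeing the data, Ttc21b and Ift140 stayed called between ciliated and non-ciliated controls (-1.55, edgeR adjusted p = 0.00244, and 0.62, edgeR adjusted p = 0.0451). The log2 difference of Wdr19 in ciliated Wdr60 went from 0.43 to 0.61 (SE 0.28, edgeR adjusted p = 1) on counts summed per clone, and the mean level of Ift43 in that clone from 36.9 to 27.4 CPM. On the log of clone means, several correlations moved. Without these libraries the r of Wdr19 with Ift43 went from 0.320 to 0.004, that of Ift122 with Ift43 from -0.556 to -0.272, that of Wdr19 with Wdr35 from -0.505 to -0.292 and that of Ift122 with Wdr35 from 0.649 to 0.463, while that of Wdr35 with Ift43 was -0.686 with and -0.706 without them and that of Wdr19 with Ttc21b 0.639 and 0.680.

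**Figure D4:**
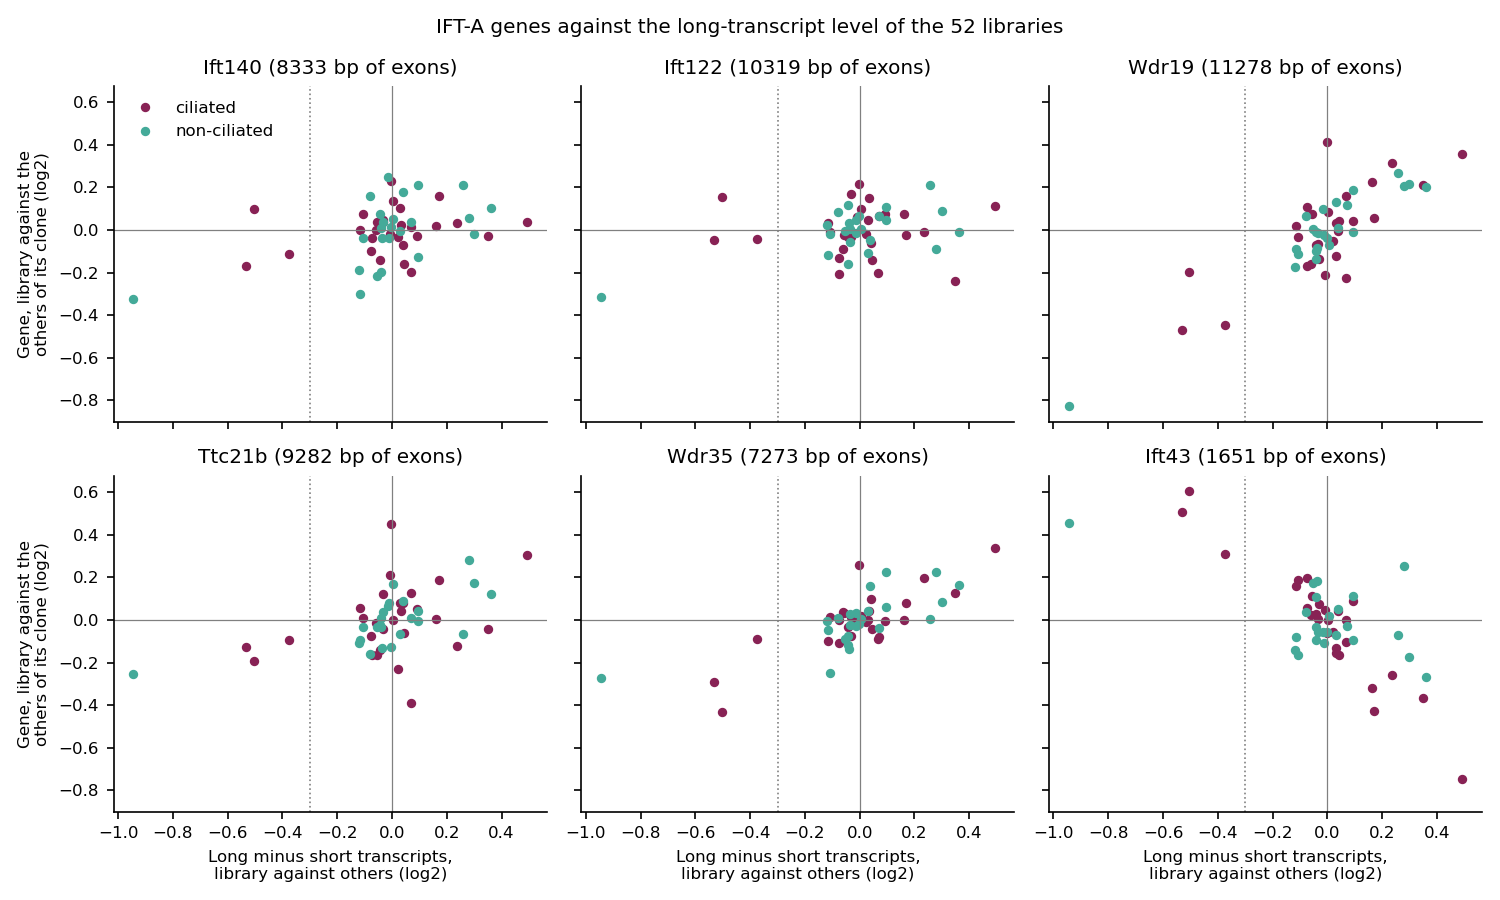
Each point is 1 of the 52 libraries. The horizontal axis is the log2 level of long minus short transcripts, and the vertical axis the log2 level of the gene, both against the other libraries of the same clone, and the dotted line at -0.3 sets apart the 4 libraries named in the text. Ift43, with 1651 bp of exon sequence, is high where long transcripts are low, and Wdr19, with 11278 bp, is low there.

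Between ciliated and non-ciliated controls the medians of long and short genes lay close together. Genes with 7000 to 12000 bp of exon sequence, the range of the other 5 members, had a median log2 difference of 0.03, genes over 6000 bp of 0.02 and genes under 2000 bp of -0.02. The gap was wider between mutants and controls, at -0.04 for genes over 6000 bp and 0.10 for genes under 2000 bp in non-ciliated cells and at -0.02 and 0.05 in ciliated cells, and between the states in mutant clones, at 0.06 and -0.06.

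The machinery around IFT-A gave the setting for these values in the same comparison of control clones. None of the 18 IFT-B genes tested, none of 5 kinesin-2 genes and none of 8 adaptor and cargo genes was called. The median log2 difference was -0.14 for IFT-B, -0.07 for kinesin-2 and 0.19 for the adaptor and cargo genes. Tulp3, the adaptor that binds IFT-A, had a log2 difference of -0.76 (SE 0.33, edgeR adjusted p = 0.128) and Adcy3, the ciliary adenylyl cyclase, of 0.80 (SE 0.33, edgeR adjusted p = 0.107). Single genes of the other lists lay well away from their medians. The IFT-B genes with the largest differences were Ttc30b at 0.77 (SE 0.33, edgeR adjusted p = 0.129) and Ttc26 at -0.61 (SE 0.24, edgeR adjusted p = 0.0973). Among the kinesin-2 genes these were Kif17, a homodimeric motor, at 1.04 (SE 0.51, edgeR adjusted p = 0.171) and Kifap3, the kinesin-associated subunit, at -0.33 (SE 0.20, edgeR adjusted p = 0.273).

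Of 10 dynein-2 genes tested, the light chain gene Dynlt1b rose (0.91, SE 0.26, edgeR adjusted p = 0.0314) and the light chain gene Dynll1, which also serves other complexes, fell (-0.998, SE 0.13, edgeR adjusted p = 0.00150). Wdr34 had a log2 difference of 0.62 (SE 0.23, edgeR adjusted p = 0.0800) and Wdr60 of -0.01 (SE 0.12, edgeR adjusted p = 0.962). Of 9 BBSome genes Ttc8, a subunit of this membrane cargo adaptor, fell (-0.65, SE 0.13, edgeR adjusted p = 0.00833). Of 6 ciliary transcription factor genes Rfx3 fell (-0.60, SE 0.17, edgeR adjusted p = 0.0329), from 58.8 ± 7.54 CPM in non-ciliated to 39.6 ± 9.10 CPM in ciliated controls. Leaving out each of the 13 clones in turn kept the calls of Dynll1 and Ttc8. The call of Dynlt1b was lost without non-ciliated control 1 or 3 or ciliated control H12, A4 or G7 (edgeR adjusted p of 0.0551 to 0.0954), and that of Rfx3 without non-ciliated control 1 or 2 or ciliated control A4 or G7 (edgeR adjusted p of 0.0604 to 0.0979).

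Some genes of the cell cycle lists differed between the states, and their part in the Ttc21b and Ift140 results was not tested. In this comparison of control clones 9.46% of all genes were called lower and 8.98% higher. Of 3 quiescence genes tested, Cdkn1b (1.12, SE 0.29, edgeR adjusted p = 0.0225), which encodes the CDK inhibitor p27, and Ccng2 (1.07, SE 0.28, edgeR adjusted p = 0.0246) rose in ciliated controls. Cdkn1b stood at 388 CPM in G7, the ciliated control with the highest Ift140, and at 182 to 203 CPM in the other 3, and without G7 its log2 difference was 0.78 (SE 0.24, edgeR adjusted p = 0.0475). The call of Cdkn1b was lost without non-ciliated control AB, 1 or 3 (edgeR adjusted p of 0.0577 to 0.0740), and that of Ccng2 without control 1, 3 or D8 (edgeR adjusted p of 0.0533 to 0.0766). Of 8 cycling genes, Birc5 (-0.44, edgeR adjusted p = 0.0475), Ccnb1 (-0.36, edgeR adjusted p = 0.0387) and Top2a (-0.44, edgeR adjusted p = 0.0396) were called lower and none higher. The genes not called ranged from -0.16 for Ccne2 to 0.255 for Mcm2, with Mki67 at -0.07. With 1 of the 13 clones left out in turn, the calls of Birc5, Ccnb1 and Top2a were lost in 9, 8 and 10 fits, at edgeR adjusted p of up to 0.128. The 8 cycling genes summed to 2142 to 3037 CPM in ciliated and 2413 to 2889 CPM in non-ciliated control clones, which overlapped. The highest sum was that of G7, the ciliated control also highest in Cdkn1b. Mki67 was at 663 CPM in G7 and at 362 to 407 CPM in the other ciliated controls. Of 12 epithelial markers tested Cdh16, a kidney cadherin, rose (1.08, SE 0.25, edgeR adjusted p = 0.0132). It stood at 841 CPM in G7 and at 342 to 454 CPM in the other ciliated controls, and without G7 its log2 difference was 0.70 (SE 0.14, edgeR adjusted p = 0.0105). In the comparisons of mutants with controls, no gene of these lists was called in either state.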

How the data were processed

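RNA was sequenced in 52 libraries from 13 clones. Per the labels and the study's methods, the authors aligned reads to GRCm38/mm10 with Rsubread in R 3.4.4 and counted them with featureCounts, and the deposited values are raw counts per gene symbol, without normalization. The strand setting and the handling of multi-mapping reads are not given in the sources used here, which leaves counts of overlapping genes and paralogs uncertain. The authors tested with DESeq2 1.18.1, and the sources used here do not say whether the libraries of a clone were summed first.

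Here, the 4 libraries of a clone were summed, since technical replicates of 1 clone are not independent, and p-values measure the spread between clones. Sums were filtered with filterByExpr, normalized by TMM and tested (2-sided) with glmQLFit and glmQLFTest in edgeR 4.0.16 (R 4.3.3), with p-values adjusted by Benjamini-Hochberg over all genes and called under 0.05. The standard error is the log2 difference divided by the square root of F. Clone means of log2 CPM (prior count 0.5) were also compared by exact permutation. CPM are scaled by TMM over all 52 libraries, except those of the summed marker lists, the fibroblast markers and the summed cycling genes, which use unscaled totals. Fits were tested on simulated data. Exon lengths and coordinates came from GENCODE and RefSeq on GRCm38. 23204 of 24421 symbols matched RefSeq, and 23376 had an exon length. No 2 libraries of a clone held identical counts (78 pairs, 0 identical).

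The members were taken by name, with no measured value in the rule, but the complex, the gene lists and the tests were chosen with earlier results of these data known. By rule, the genes named were the 6 members, the edited genes Wdr34 and Wdr60, called genes of the other lists or those with the largest changes, and the 5 genes most like the mean profile. Ttc21a, the genes that overlap members, and Aqp2, Dcn, Col1a1 and the other single markers were named after their values were seen. Alternatives were libraries as samples with and without the replicate number as a block, DESeq2 1.42.0, RLE size factors, a filter of 1 count, voomLmFit (limma 3.58.1) with the clone as a block, a log2 fold change of at least 1, and leaving out each clone or library number. Added after the data were seen were the mutant clones between states, all 13 clones between states, 2 sets of 4 libraries left out, and the transcript length.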

Additional observations from a re-analysis of the deposited data

Results flagged for a closer look

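In 4 of 90 sets of libraries or clones tested, 1 value stood apart from the rest by Dixon's criterion, and chance alone gives about 1 in 20. For Wdr19, library 1 of non-ciliated control AB was at 33.2 CPM, below the 58.2 to 60.1 CPM of the other 3 libraries, and library 3 of ciliated control D8 was at 31.5 CPM, below 36.1 to 36.8 CPM. For Ttc21b, library 2 of ciliated Wdr34 clone 3 was at 9.47 CPM, below 11.02 to 11.16 CPM. For Wdr35, library 1 of ciliated control A4 was at 79.1 CPM, above 65.6 to 66.7 CPM.

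Of these 4, the library of control AB is also the one with the lowest level of long against short transcripts of the 52 libraries, -0.94 on the log2 scale, and its part in the Wdr19 value was not tested.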

How the results depend on the processing

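Between ciliated and non-ciliated controls, Ttc21b was called lower in each of 25 alternative fits, with log2 differences of -1.70 to -1.43 and adjusted p of 4.18e-19 to 0.00669. Some of these fits left out only a mutant clone, which enters the spread but not the difference. Ift140 kept its direction (0.46 to 0.75, adjusted p 5.74e-08 to 0.121) and lost its call in 10 of 25. The number of members called was 2, and it ranged from 1 to 3 over these alternatives. It was 1 with a filter of 1 count, with a log2 fold change of at least 1 and without the 4 libraries in which 1 member stood apart from the rest of its clone (not the 4 low in long transcripts, without which it was 2), a choice made after seeing the data, and 1 to 2 when a clone or a library number was left out. The calls lost with fewer clones also had fewer clones to estimate the spread.

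Library numbers do not pair the samples: deviations of libraries with the same number had a mean correlation of 0.013 over 144 pairs, and 18 of 52 libraries lay closest to their own number. With the replicate number as a block and libraries as samples, 3 members were called between the states, 0 in ciliated and 0 in non-ciliated mutants, 0 in the difference between states and 8 of 30 in single clones. Without the block these counts were 3, 0, 1, 0 and 8. No member was called in ciliated mutants or in the difference between states under any alternative run.

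Signs of estimates that were not called changed as follows, and the cause was not tested. In ciliated mutants, leaving out 1 clone gave Ift140 from -0.18 to 0.052 (without G7; 0.018 without Wdr60), Ift122 from -0.17 to 0.025 (without Wdr60) and Ift43 up to 0.055 (without Wdr34 clone 3). In non-ciliated mutants the estimates without Wdr34 and without Wdr60 were 0.51 and -0.34 for Wdr19, 0.36 and -0.10 for Ttc21b, -0.33 and 0.029 for Wdr35, and 0.30 and -0.088 for Ift43, where the lone mutant clone is assumed to vary like the controls. Between the states Wdr19 ranged from -0.23 (without H12) to 0.078 (without AB), and in mutant clones Wdr19 was 0.038 and Ift43 -0.036. In the difference between states Wdr19 ranged from -0.24 (without non-ciliated Wdr34) to 0.62 (without non-ciliated Wdr60), and Wdr35 from -0.13 (without non-ciliated Wdr60) to 0.21 (without non-ciliated Wdr34).

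These comparisons rest on 2 to 4 clones a group, state goes with serum, and the sequencing times of the 2 states are not given. Ttc21b had 166 to 396 counts in ciliated libraries, for which counting error alone gives an SD of 0.112 to 0.072 on the log2 scale, beside 0.126 among the libraries of a clone. Each of the other 5 members had at least 332 counts in every library.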
